A study of Gallus gallus with 4 samples.

Results

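The repeats described here are the DNA transposons and the ancient conserved elements counted in RNA from cranial neural folds of the chick embryo (Gallus gallus), the ridges of the head neural plate that give rise to the cranial neural crest. The members were taken by spelling alone, as the repeat names that begin with UCON, Eulor, MER, Charlie, Mariner, Tigger, Chompy, hAT, Kanga or Chap. They number 107 of the 11336 names in the repeat tables, and the spelling rule uses no measured value. Of these, 77 are conserved elements (56 UCON and 21 Eulor names) and 30 are named transposons (13 MER, 10 Chompy, 4 Charlie, 2 Mariner and 1 hAT name). No name begins with Tigger, Kanga or Chap.

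The series compared 2 Chiwi knockout libraries with 2 control libraries. Embryos at Hamburger-Hamilton stage 4 (HH4, gastrula) received Cas9 together with guides that target Chiwi (PIWIL1, a PIWI protein of the chicken) on the right side and with control guides on the left side. They were grown for about 14 h to early stage 9, and folds of several embryos were pooled for each library. Both groups therefore carry Cas9 and guide plasmids, and knockout cannot be told apart from the right side of the embryo. Electroporation reaches part of the cells, and each value is an average over the folds as dissected, in which fewer cells of a type and less RNA per cell cannot be told apart. The level of Chiwi and of neural fold markers was not analysed here, because the reference table used pairs 0 of the 24356 Ensembl gene IDs with a symbol.

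DNA transposons move as DNA by cut and paste, through a transposase that binds their terminal inverted repeats. Mariner and Charlie elements (Charlie is of the hAT superfamily) are the main such families known from the chicken genome, and Chompy elements are short, MITE-like sequences without a transposase of their own that were first described in crocodilians. UCON and Eulor names stand for old, low-copy repeats that are recognised across distant vertebrates, some of which are known to have been taken over as regulatory sequence. MER, for medium reiterated repeat, is a catalogue name given before the class of a repeat was known, and some MER repeats are themselves old conserved elements. PIWI proteins bind piRNAs and are best known for silencing transposons in the animal germ line, which is the background to asking about transposon RNA after loss of Chiwi.

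Levels are given as CPM, reads of a name per 1000000 reads in the gene table of the same library. The gene tables held 38783357 to 40352750 reads, and 2707324 to 2942281 reads were counted in repeats. A name sums all of its copies in the genome, and neither copy number nor length is in the tables. The order of names is therefore an order of reads and not of transcription per copy. Reads from a copy inside a host gene may be part of any count.

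The named transposons held 74.8% of the members' reads and the conserved elements 25.2%, although the conserved elements have more names. All 30 named transposons were read in each of the 4 libraries, with a median level of 6.26 CPM and a range of 0.537 to 246 CPM. Of the 77 conserved elements, 67 were read in each library, with a median of 0.750 CPM over all 77. Without the 13 MER names, the other 17 named transposons had a median of 10.8 CPM and held 64.6% of the members' reads. Of the 30 named transposons 12 lay above 10 CPM and 5 below 1 CPM, whereas of the conserved elements 7 lay above 10 CPM and 47 below 1 CPM. UCON92 had 0 reads in all 4 libraries, which allows a level of up to 0.0189 CPM (3 reads over the 4 libraries, counting error only).

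Reads of the named transposons were concentrated in a few names. Mariner1_GG, a chicken mariner element, was the most read, at 221 and 259.6 CPM in the knockout libraries and 251 and 252 CPM in the control libraries. The groups overlapped, and knockout replicate 1 was the lowest of the 4. Mariner1b_GG, a variant of the same element, had 148 and 163 CPM in knockout and 158 and 158 CPM in control folds, in the same pattern. Charlie12_GG, a chicken hAT element, came next at 69.1 and 74.9 CPM in knockout and 68.6 and 72.0 CPM in control folds, with interleaved groups. These 3 names made up 64.2% of the reads of all named transposons.

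The next names in the order were crocodilian Chompy elements and MER repeats. Chompy-4_Croc had 37.6 and 41.1 CPM in knockout and 39.0 and 41.6 CPM in control folds. Chompy-1_Croc had 31.9 and 31.2 CPM in knockout and 32.8 and 32.3 CPM in control folds, and Chompy-3_Croc had 17.8 and 18.4 against 16.3 and 18.2 CPM. Of these, Chompy-1_Croc alone had both knockout libraries below both control libraries, by a margin of under 1 CPM. MER131 had 33.0 and 35.2 CPM in knockout and 34.3 and 37.8 CPM in control folds. MER127 had 28.9 and 26.9 CPM in knockout and 27.4 and 29.7 CPM in control folds. Chompy-4_Croc lay above MER131, and MER131 above Chompy-1_Croc, in each of the 4 libraries.

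UCON78 was the most read conserved element, at 40.5 and 38.5 CPM in knockout and 39.3 and 39.5 CPM in control folds. It alone held 15.9% of the reads of the set. The next were Eulor12, at 18.8 and 19.4 CPM in knockout and 19.3 and 20.03 CPM in control folds, and Eulor9C, at 19.1 and 18.9 against 18.4 and 20.2 CPM. The values of Eulor12 and Eulor9C overlap, whereas UCON78 lies above both in every library. UCON29 had 15.1 and 17.7 CPM in knockout and 17.4 and 17.2 CPM in control folds, with knockout replicate 1 apart from the other 3 libraries. Eulor6D had 13.5 and 14.0 CPM in knockout and 13.8 and 14.1 CPM in control folds, and UCON2 had 13.1 and 13.9 against 13.1 and 14.7 CPM. UCON4 had 14.4 and 12.8 CPM in knockout and 13.6 and 13.7 CPM in control folds, and UCON11 had 10.1 and 9.90 against 9.69 and 9.93 CPM. Groups overlapped for all 8 of these conserved elements.

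**Figure D1:**
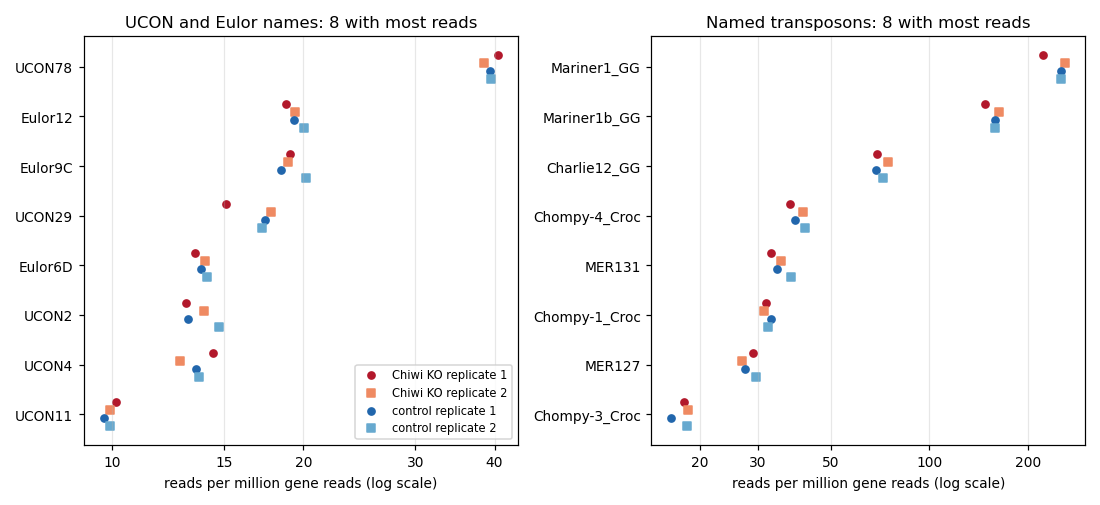
Level of the 8 conserved elements (left) and 8 named transposons (right) with the most reads, in CPM on a log scale, 1 point per library (red, Chiwi KO replicates 1 and 2; blue, control replicates 1 and 2). Mariner1_GG at 221 to 259.6 CPM and UCON78 at 38.5 to 40.5 CPM head their sets, and the points of the 2 groups interleave for all names but Chompy-1_Croc.

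Within families of lettered names, reads were spread unevenly. Of the reads of the 5 Eulor6 names, 56.8% belonged to Eulor6D and 0.414% to Eulor6C. Of the Eulor9 names, Eulor9C held 84.3% and Eulor9B 4.36%, and of the Eulor5 names Eulor5A held 94.2%. The 3 UCON28 names were even, with 34.6% for UCON28c and 31.2% for UCON28a. Such names share a source sequence, so reads may be split between them by the authors' counting.

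The share of Mariner1_GG in the reads of Mariner1_GG and Mariner1b_GG together was 60.0% (exact binomial 95% interval 59.2 to 60.8%) in knockout replicate 1 and 61.5% (60.7 to 62.2%) in knockout replicate 2, against 61.4% in each control library (60.7 to 62.1% and 60.7 to 62.2%). Knockout replicate 1 thus had the lowest value of this ratio, in which scaling cancels, and its interval overlapped the others only at its upper end. The other 3 libraries agreed within counting error. The shares of the groups overlapped (exact two-sided permutation p = 1). Charlie12_GGa took a small part beside Charlie12_GG, which held 96.1% and 95.9% of their reads in knockout and 95.5% and 95.6% in control folds. Both knockout shares lay above both control shares (exact permutation p = 0.333, the smallest possible), with intervals that all overlap. MER133A held 53.8% (47.9 to 59.7%) of the reads of MER133A and MER133B in knockout replicate 1 and 34.5% (29.1 to 40.2%) in knockout replicate 2, against 43.7% and 49.6% in the control libraries. The 2 knockout libraries differ here by more than counting error, and the controls lie between them.

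Char12Mar1_GG, whose name joins those of Charlie12 and Mariner1, falls outside the spelling rule. It had 496 and 546 CPM in knockout and 534 and 522 CPM in control folds, more reads than any member. It is given because reads could be shared between it and the Mariner and Charlie names.

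Knockout and control folds were compared name by name with edgeR's quasi-likelihood test over all 2803 repeat names that passed the low-count filter. All 30 named transposons passed that filter and 53 of the 77 conserved elements (39 UCON, 14 Eulor). The 24 conserved elements left out had at most 39 reads over the 4 libraries. Of the 83 members tested, 0 passed an adjusted p of 0.05, as did 0% of all repeat names. The adjusted p was 0.9997 for each member. By unadjusted p under 0.05, 1 of the 83 members was past the threshold, against 1.39% of all repeat names, and DESeq2 and limma-voom called 0 names.

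The fold changes of the most read members were close to 0. For Mariner1_GG the log2 fold change was -0.066 (SE 0.11), and its 95% interval of -0.29 to 0.15 bounds the fold between 0.820 and 1.11. Mariner1b_GG had -0.026 (SE 0.11) and Charlie12_GG 0.035 (SE 0.11, interval -0.19 to 0.26). UCON78 had 0.0038 (SE 0.12, interval -0.23 to 0.24), a fold between 0.851 and 1.18. The intervals of these 4 names all lay between a fold of 0.820 and 1.20. Over the conserved elements tested, the median interval extended 0.54 log2 units to either side, and over the named transposons 0.36. A change smaller than that was not detectable for a typical name. These intervals are not adjusted for the number of names tested, so a call at the adjusted threshold needed a larger change. The interval of a name also rests on the spread of other names, because the test shares its estimate across names (prior degrees of freedom 27.4).

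**Figure D2:**
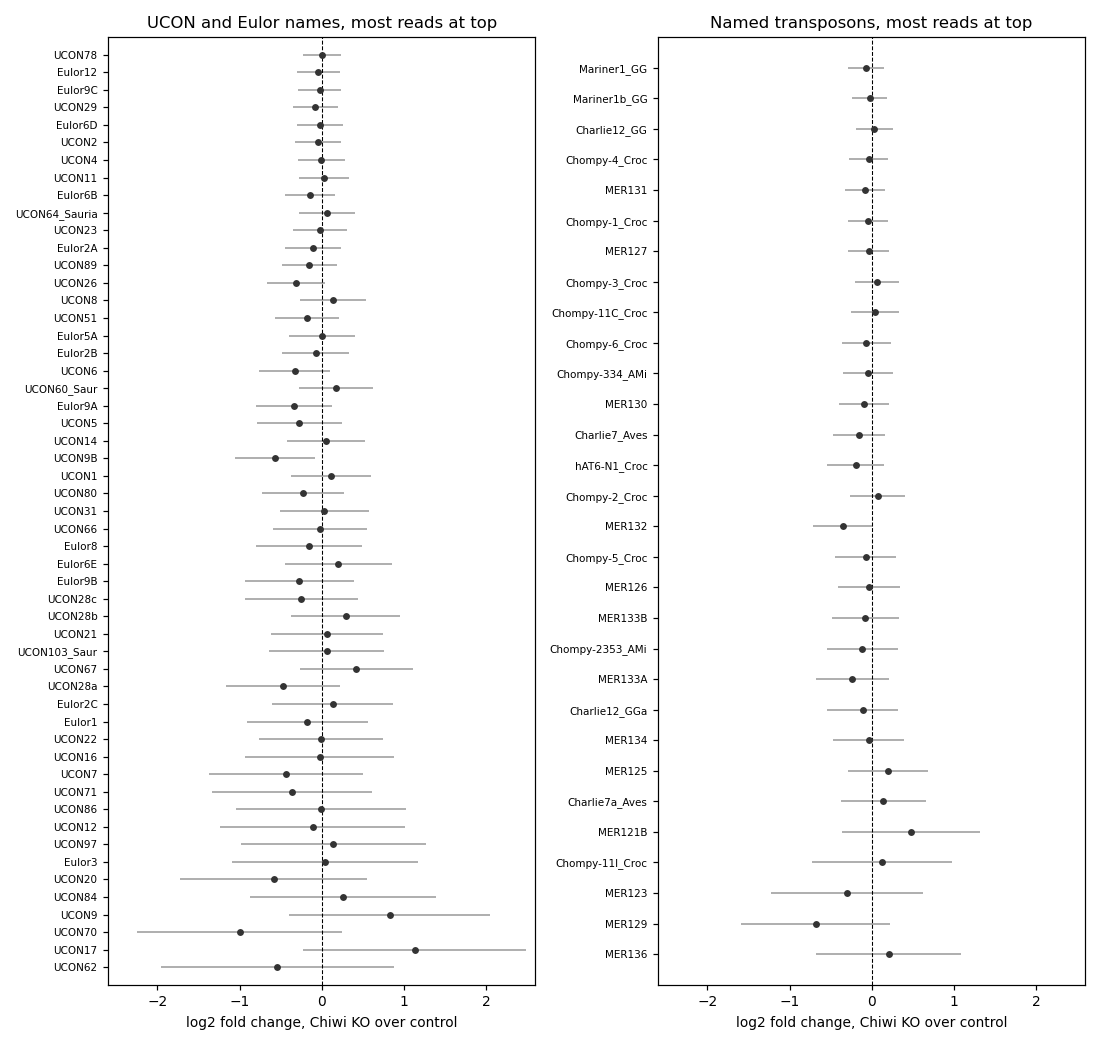
Log2 fold change (Chiwi KO over control, point) with its 95% interval (bar) from edgeR for the 53 conserved elements (left) and 30 named transposons (right) tested, with the most read name at the top. Intervals widen down each panel as reads become fewer, and UCON9B is the single name whose interval leaves out 0.

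Among the conserved elements, UCON9B had the smallest unadjusted p. It had 1.86 and 1.93 CPM in knockout and 2.53 and 3.09 CPM in control folds, from 72 and 76 reads against 102 and 124 reads. Both knockout libraries lay below both controls, and the log2 fold change was -0.57 (SE 0.24, 95% interval -1.05 to -0.084; edgeR unadjusted p = 0.0230, adjusted p = 0.9997). UCON9, the name without the letter, had 9 and 24 reads in knockout and 13 and 6 in control folds, and its groups overlapped.

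UCON26 had 6.27 and 5.18 CPM in knockout and 7.78 and 6.46 CPM in control folds (log2 fold change -0.32, SE 0.17). Eulor9A had 2.17 and 2.39 CPM in knockout and 2.90 and 2.87 CPM in control folds (log2 fold change -0.34, SE 0.23). UCON70 had 7 and 7 reads in knockout and 12 and 17 in control folds, and the interval of its log2 fold change of -0.997 ran from -2.24 to 0.25. These 3 names, like UCON9B, were chosen because their knockout libraries lay below the controls without overlap. That pattern was found for 12.8% of all repeat names tested. The edgeR adjusted p was again 0.9997 for each of them.

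Names in the other direction were chosen in the same way. UCON67 had 1.06 and 0.939 CPM in knockout and 0.768 and 0.723 CPM in control folds (log2 fold change 0.42, SE 0.34). UCON28b had 1.03 and 1.04 CPM against 0.867 and 0.823 CPM (0.29, SE 0.32), while its family members UCON28a and UCON28c had -0.47 and -0.25. The UCON28 names thus did not share a sign. UCON84 had 14 and 14 reads in knockout and 10 and 14 in control folds, separated only after scaling. UCON17 had 13 and 15 reads in knockout and 2 and 11 in control folds. Its log2 fold change of 1.13 (SE 0.66) moved to 0.38 when control replicate 1 was left out and to 2.78 when control replicate 2 was, so a single library set its size.

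Of the named transposons, MER132 had the smallest unadjusted p, at 4.54 and 5.79 CPM in knockout and 6.34 and 6.81 CPM in control folds (log2 fold change -0.35, SE 0.18, interval -0.71 to 0.015; edgeR adjusted p = 0.9997). Leaving out knockout replicate 1 gave -0.18, and leaving out knockout replicate 2 gave -0.54. MER130 had 9.77 and 9.88 CPM in knockout and 10.98 and 9.95 CPM in control folds (-0.091, SE 0.15). Charlie12_GGa had 2.84 and 3.20 CPM against 3.22 and 3.29 CPM (-0.11, SE 0.21). MER136, with 23 and 22 reads in knockout and 20 and 20 in control folds, was the single named transposon with both knockout libraries above both controls (0.21, SE 0.43). That is 3.33% of the named transposons, against 12.9% of all repeat names tested. Among the 235 names tested that are not simple or low-complexity repeats it was 5.96%.

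Among members past the low-count filter, those with few reads varied most by the ratio between the libraries of a group. Counting error widens this ratio where reads are few. UCON62 had 2 and 14 reads in the knockout libraries and 7 and 17 in the control libraries, and MER123 had 11 and 30 reads against 32 and 20. MER129 had 14 and 21 reads in knockout and 39 and 19 in control folds, where its log2 fold change of -0.68 was -0.082 without control replicate 1. Groups overlapped for these 3 names. UCON17, described above with 2 and 11 reads in the control libraries, also varied widely, and its groups did not overlap.

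Over the 83 members tested, 16 had both knockout libraries below both controls, 19.3% against 12.8% of all repeat names tested, and 5 had them above, 6.02% against 12.9%. Simple and low-complexity repeats make up most of the names tested. Among the 235 other names, to which the members belong, the shares were 15.7% below and 5.96% above. A negative log2 fold change was found for 54 of the 83 members (65.1%), against 51.1% of all names tested and 65.5% of the 235. The median log2 fold change was -0.024 over the conserved elements and -0.046 over the named transposons, against -0.0043 over all names tested and -0.035 over the 235. Taken by set, the knockout libraries lay below the controls without overlap for 22.6% of the conserved elements and 13.3% of the named transposons. They lay above for 7.55% and 3.33%. By the share of negative values, the members' lean towards lower values in knockout tissue is thus close to that of the repeat names that are not simple repeats. Part of this closeness is built in, because the 83 members are among the 235 names.

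**Figure D3:**
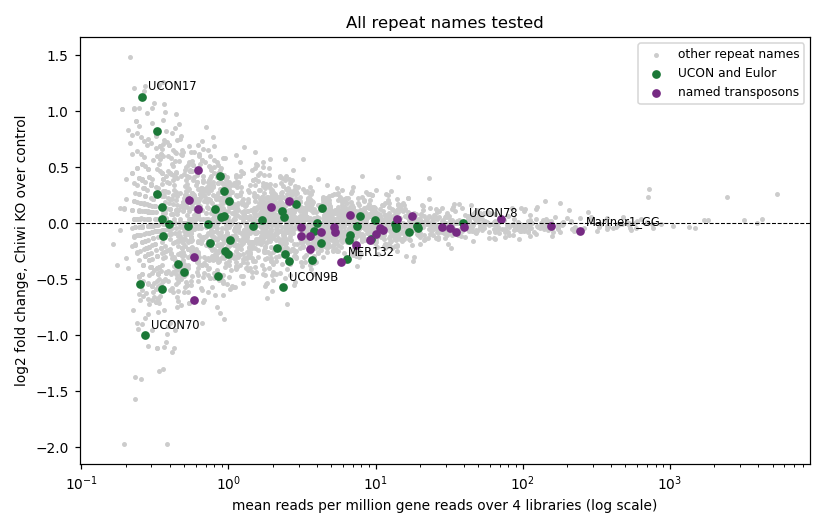
Log2 fold change (Chiwi KO over control) against mean level over the 4 libraries (log scale) for all 2803 repeat names tested, with conserved elements in green, named transposons in purple and other names in grey. Members lie within the cloud of other names at the same level, most of which are simple repeats. Values far from 0, such as 1.13 for UCON17 and -0.997 for UCON70, occur at the low end. Among the 235 names that are not simple repeats, UCON17 had the highest value and UCON70 the lowest.

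For the summed level of each set, all assignments of the libraries to groups were enumerated (exact two-sided permutation test), and 2 against 2 libraries allow no p below 0.33. The conserved elements summed to 239.5 and 249 CPM in knockout and 252 and 254 CPM in control folds, or 244 ± 6.82 against 253 ± 1.54 CPM (SD, n = 2 each). Their ratio was 0.966 (exact permutation p = 0.333). The knockout libraries lay below the controls without overlap. With TMM factors in the scaling the groups overlapped (exact permutation p = 0.667). UCON names summed to 158 and 165 CPM in knockout and 166 and 167 CPM in control folds. Eulor names summed to 81.4 and 84.5 CPM in knockout and 85.7 and 87.2 CPM in control folds, so both prefixes had the pattern of their set. With TMM factors the groups overlapped for UCON but not for Eulor names.

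The named transposons summed to 693 and 761 CPM in knockout and 743 and 754 CPM in control folds, and the ratio of the means was 0.971 (exact permutation p = 1). The groups overlapped, with knockout replicate 1 the lowest and knockout replicate 2 the highest of the 4 libraries. Mariner names followed the same order, at 369 and 422 CPM in knockout and 409 and 410 CPM in control folds. The single hAT name, hAT6-N1_Croc, had 5.80 and 7.998 CPM in knockout and 7.91 and 7.88 CPM in control folds, with 3 libraries close together and knockout replicate 1 below them. Charlie names summed to 82.3 and 89.3 CPM in knockout and 84.1 and 86.1 CPM in control folds. MER names summed to 95.8 and 99.6 CPM in knockout and 99.6 and 107 CPM in control folds. Of the prefixes with several names, Chompy varied least, at 140.4 and 141.5 CPM in knockout and 142.2 and 143.3 CPM in control folds. Its knockout libraries lay below the controls without overlap, with a ratio of 0.988 (exact permutation p = 0.333). This order depends on the scaling. TMM factors change the library size by 0.997 in knockout replicate 2 and by 1.008 in control replicate 1, and the Chompy groups then overlap. Of the 10 Chompy names, 1 had its knockout libraries below the controls without overlap, and 4 had a positive log2 fold change.

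**Figure D4:**
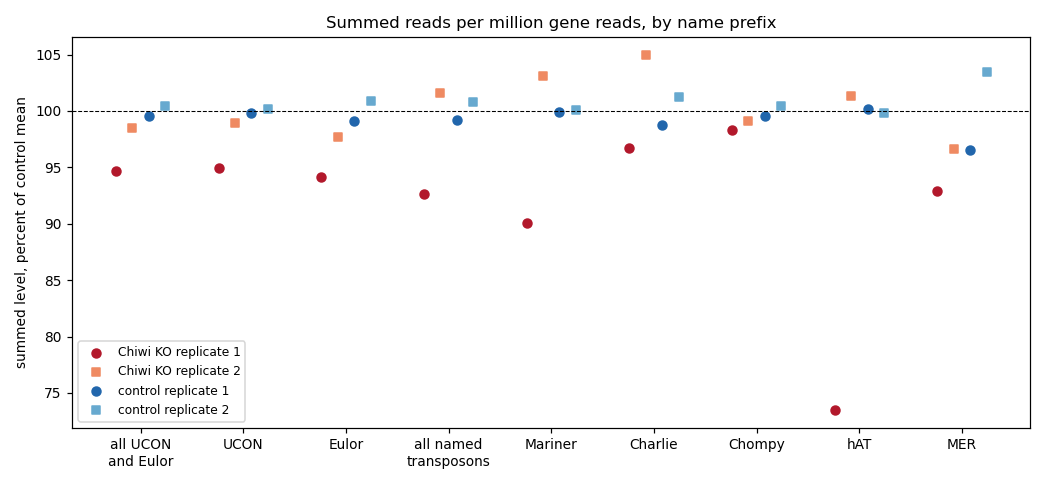
Summed level of each set and name prefix in every library, as percent of the mean of the 2 control libraries (dashed line at 100), with Chiwi KO replicates in red to the left of control replicates in blue. Knockout replicate 1 is the lowest library in every column, while knockout replicate 2 is above both controls for Mariner, Charlie, hAT and all named transposons.

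Within a library, the conserved elements had 0.345 and 0.327 reads per named transposon read in knockout and 0.339 and 0.337 in control folds (exact permutation p = 1). The control libraries lay between the knockout libraries, and the ratio does not depend on scaling. As a share of all reads in the repeat table, the members made up 1.34% and 1.35% in knockout and 1.42% and 1.42% in control folds. These groups did not overlap (exact permutation p = 0.333, the smallest possible). The share also depends on all other repeats. All repeats together were at 69806 and 74703 CPM in knockout and 70218 and 71016 CPM in control folds, so the knockout libraries were the lowest and the highest of the 4.

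In the summed levels of both sets the 2 knockout libraries lay further apart than the 2 control libraries. The sum of all repeats did so too, at 69806 and 74703 CPM in knockout and 70218 and 71016 CPM in control folds. A chi-square over single repeat names, scaled by the repeat reads of each library, is a different measure, from which a shift of all repeats is removed. It was 4.92 per degree of freedom for the knockout pair, against 6.60 for the control pair. Among the 25 named transposons with a mean of at least 1 CPM, 17 lay below their own 4-library mean in knockout replicate 1 and 11 did so in knockout replicate 2, against 11 and 6 in control replicates 1 and 2. Among the 30 conserved elements at that level the counts were 22 and 12 in the knockout libraries, against 15 and 7 in the control libraries. Knockout replicate 1 was the lowest library for 37 of the 83 members tested, or 44.6%. It was the lowest for 33.3% of all repeat names and for 55.7% of the 235 names that are not simple repeats, so this is not particular to the members. Without knockout replicate 1 the log2 ratio of the named transposon sum turned to 0.023, and without knockout replicate 2 it was -0.11. That of the conserved element sum was -0.021 and -0.078 in these cases.

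**Figure D5:**
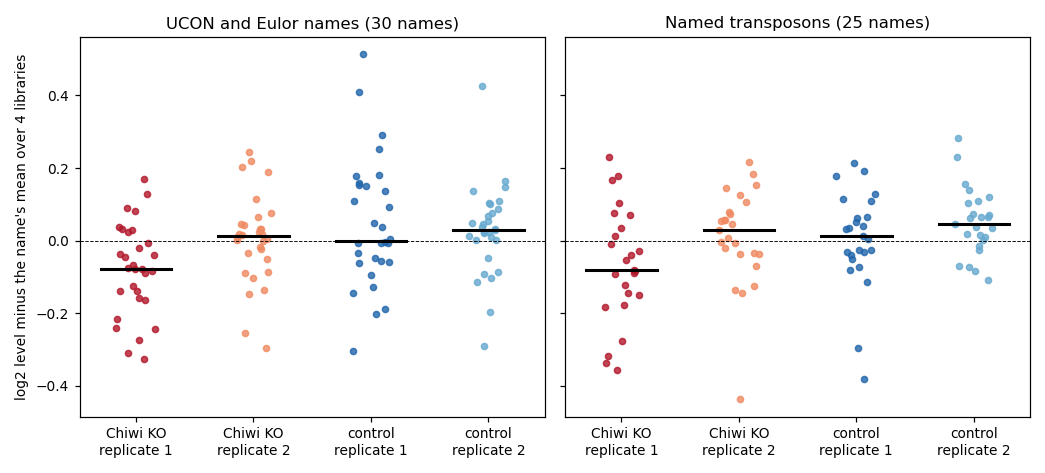
Log2 level of each member with a mean of at least 1 CPM, minus the mean of that name over the 4 libraries, for 30 conserved elements (left) and 25 named transposons (right); points are names and bars are medians. Knockout replicate 1 has the lowest median in both panels, -0.076 and -0.082, and knockout replicate 2 lies at 0.012 and 0.031, near the control libraries.

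The spread between libraries of a group was also set against counting error. For each name, the chi-square of its reads within groups per degree of freedom averages 1 where libraries differ by counting error alone. The median over names then lies below 1, because such values are skewed. The chi-square grows with read number where the relative spread stays the same. The median of this chi-square was 1.17 over the conserved elements tested and 3.81 over the named transposons, against 2.08 over all repeat names tested. Over the 235 names that are not simple repeats, which include the members, the median was 3.502, near that of the named transposons. For single names, the chi-square reached 59.4 for Mariner1_GG and was 14.2 for Mariner1b_GG, whereas for UCON78 it was 1.01 and for Chompy-1_Croc 0.215. The conserved elements, with few reads each, thus had a smaller excess over counting error at the median than the named transposons, though not none. For the Mariner names the spread lay between the knockout libraries, since the control libraries were within 1 CPM of each other.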

How the data were processed

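Per the labels' protocols, total RNA of pooled folds was sequenced in 2 Chiwi knockout and 2 control libraries. The authors deposited raw read counts per Ensembl gene ID and per repeat name for each library. Per the submitters' processing notes, Bowtie2, featureCounts, DESeq2 and the galGal6 build were used; not given in the sources used here are versions, strand and the treatment of reads with several matches. Such reads could be split between related names or dropped.

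Members were found by the start of the name. Counts were divided by the summed gene-table reads of the library, without further factors. Repeat names past filterByExpr (minimum count 10 and total 15) were tested with edgeR 4.0.16 in R 4.3.3 (glmQLFit, glmQLFTest, group as the only term), with Benjamini-Hochberg adjustment over all names and a threshold of 0.05. SE is the absolute log2 fold change over the square root of F. The fit was tested on simulated data that gave all names the same spread and shifted no library, so a shift of a whole library was not covered. Alternatives used DESeq2 1.42.0, limma 3.58.1 (voom), other scalings, no filter, robust=TRUE, no simple repeats, a replicate block and each library left out.

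The members, sets and tests were chosen with earlier results of these data known. Names described are the 8 most read per set, up to 4 per direction and set with the smallest p and no overlap, and the 2 per set that varied most within a group among names past the filter; UCON9, UCON28a, UCON28c, hAT6-N1_Croc, family shares and Char12Mar1_GG were added after their values were seen. Planned gene lists and the check of Chiwi were not analysed here. The labels name no separate embryo sets, so the spread behind each p-value is that between these pools and may be technical. Libraries of a group differed beyond sampling noise (chi-square per degree of freedom over genes 14.0 for knockout, 14.6 for control). Each was counted as a sample, though this excess does not show that the pools are independent.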

Additional observations from a re-analysis of the deposited data

How the results depend on the processing

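The count of 0 members past an adjusted p of 0.05 was the same in all 13 alternatives: TMM and median-of-ratios factors, scaling by the repeat table, DESeq2, limma-voom, no low-count filter, robust=TRUE, no simple repeats, the replicate block and each library left out. Over all repeat names the count was 0 to 2 when 1 library was left out, in fits that assume a lone library varies like the others, and 0 otherwise. When 1 library was left out, the log2 ratio of the summed level ranged from -0.11 to 0.023 for named transposons, -0.10 to 0.012 for all members and -0.045 to 0.032 for conserved elements per named transposon. The conserved element sum kept its sign, from -0.078 to -0.021. Of the 31 names described by rule, 17 kept their sign in these 4 fits and 14 did not: Mariner1_GG (-0.19 to 0.044), Mariner1b_GG (-0.097 to 0.042), Charlie12_GG (-0.024 to 0.091), Chompy-4_Croc (-0.10 to 0.028), Chompy-3_Croc (-0.011 to 0.15), MER127 (-0.090 to 0.025), MER123 (-1.18 to 0.24), UCON78 (-0.033 to 0.040), UCON29 (-0.20 to 0.035), UCON4 (-0.090 to 0.079), UCON2 (-0.13 to 0.040), UCON62 (-2.46 to 0.25), Eulor6D (-0.049 to 0.0043) and Eulor9C (-0.089 to 0.043). With scaling by the repeat table, UCON78 turned to -0.027 and UCON11 to -0.00083, and the sums kept their sign. They also did with the MER names counted among the conserved elements (-0.058 for these and -0.037 for the other transposons).

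Replicate numbers are shared by the groups, and each embryo carried both guides, on opposite sides, so the groups may hold the same embryos. Nothing in the labels ties a number to shared embryos. Same-numbered deviations had a correlation of 0.357 over genes, 0.175 over repeat names and -0.148 over the members tested, which leaves the pairing undecided; the permutation tests use none. With the replicate block the count of calls was 0, and the log2 ratio was -0.050 for the conserved element sum, -0.044 for the named transposon sum and -0.045 for all members. The relative spread between libraries that edgeR estimated (biological coefficient of variation) was 0.0938 with the block and 0.118 without it. The SE and intervals given come from the fit without the block. Names with under about 20 reads a library, such as UCON17 and UCON62, are limited by depth.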
